A study of Homo sapiens with 21 samples.

Results

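The clustered histone genes were taken as every gene in the expression table whose symbol begins with HIST1H, HIST2H, HIST3H or HIST4H. The table listed 73 of them among 23368 genes, and 62 varied between libraries, out of 19694 genes that varied. The varying members comprised 6 H1, 13 H2A, 19 H2B, 12 H3 and 12 H4 genes, of which 51 belonged to the HIST1 cluster, 7 to HIST2, 3 to HIST3 and 1 to HIST4. RNA had been sequenced from hTERT-HPNE cells, a line derived from human pancreatic duct and kept growing by telomerase, that were untreated or were collected 4, 8 or 24 h after 400 ng/ml neocarzinostatin (NCS) or 300 µM H2O2. NCS is a drug that breaks DNA, and H2O2 is an oxidant. Each of the 7 groups held 3 libraries, described as biological replicates of 1 line. All 6 treated groups were compared with the same 3 untreated libraries, which were taken at 0 h. No untreated library was taken at 4, 8 or 24 h. In comparisons with untreated cells, an agent and time in culture therefore cannot be told apart.

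Histones package DNA. H2A, H2B, H3 and H4 form the core of the nucleosome, and H1 binds the linker DNA beside it. Most clustered histone genes are made for S phase, when new DNA must be wrapped, and their mRNAs end in a conserved stem-loop bound by SLBP in place of a poly(A) tail. Some of these genes can also give transcripts that run on past the stem-loop and are polyadenylated, mainly in cells that have left the cycle. The libraries were made with a kit that selects poly(A) RNA, so the values below describe poly(A) transcripts of the histone genes and cannot be read as total histone mRNA.

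The stem-loop is shown first for members that the results turn on. In GENCODE v29 (GRCh38), 70 of the 73 genes were protein-coding and 3 were pseudogenes, HIST2H2BA, HIST2H2BC and HIST1H2APS1. Gene models held bases after the stop codon for 36 of the coding members, and 32 of these 36 carried the pattern GGNNNTTNTNANNNCC, with its arms paired, within the first 150 bases. Taken over all 70 coding members, with or without such bases, 45.7% did so. On that same basis only 5 of 19520 other protein-coding genes did, which is 0.0256%. Among these 5 was the H2A variant gene H2AFX. The 32 stem-loops used 6 different spellings. Each line gives 26 bases of the coding strand as DNA, with the 16-base stem-loop in capitals.
HIST1H2AC: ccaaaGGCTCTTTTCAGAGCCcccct
HIST1H2BC: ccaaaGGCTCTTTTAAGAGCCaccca
HIST1H2BD: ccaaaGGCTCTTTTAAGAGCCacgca
HIST2H2BE: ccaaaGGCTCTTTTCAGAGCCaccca
HIST1H3E: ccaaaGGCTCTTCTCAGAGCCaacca
HIST1H4H: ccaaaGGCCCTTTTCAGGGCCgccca
HIST1H2AC and HIST2H2BE shared the most frequent stem-loop, found in 17 members, and HIST1H2BC and HIST1H2BD shared one found in 5 members. HIST1H3E, an H3 gene, had a spelling of its own, and the stem-loop of HIST1H4H, an H4 gene, was shared with 4 other members. The annotated transcripts continued past the stem-loop by 1729 bases in HIST2H2BE, 1114 in HIST1H2AC, 116 in HIST1H2BC, 39 in HIST1H2BD, 1862 in HIST1H3E and 630 in HIST1H4H. HIST1H2BD also had a transcript with 384 bases after the stop codon, and no stem-loop was found in its first 150. The models of HIST1H2BK and HIST1H1C ended at the stop codon and could not be searched.

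Promoter windows from RefSeq (GRCh38.p14, 250 bases before to 50 after the start) were matched to 50 of the 62 members. CCAAT, the core of the site bound by NF-Y, stood on either strand of 86% of these 50 windows and of 34.6% of all 35116 windows. By type it stood in 100% of H1, H2A, H2B and H3 windows, but in only 30% of the 10 H4 windows. TATAAA stood in 66% against 11.5%. The octamer ATTTGCAT, the site bound by OCT1, stood in 36% of member windows against 1.77% of all windows, and it was unevenly spread over the types, with 75% of 12 H2A and 66.7% of 12 H2B windows, 10% of 10 H3 windows, and 0 of 6 H1 and 0 of 10 H4 windows. The 3 motifs can overlap each other, and a match is a description of letters only. The 250 bases before the start are given for the 4 members with the largest rises at 24 h after NCS, described below, with matches to the 3 motifs or their reverse complements in capitals. Their positions were chr6:26123922-26124171 (plus strand), chr6:26157871-26158120 (plus), chr6:27146859-27147108 (minus) and chr1:149886683-149886932 (minus).
HIST1H2AC: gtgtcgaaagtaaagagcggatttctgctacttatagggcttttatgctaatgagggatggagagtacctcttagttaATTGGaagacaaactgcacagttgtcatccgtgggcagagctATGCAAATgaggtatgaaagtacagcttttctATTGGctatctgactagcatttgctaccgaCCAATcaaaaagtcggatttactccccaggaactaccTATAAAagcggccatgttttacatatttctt
HIST1H2BD: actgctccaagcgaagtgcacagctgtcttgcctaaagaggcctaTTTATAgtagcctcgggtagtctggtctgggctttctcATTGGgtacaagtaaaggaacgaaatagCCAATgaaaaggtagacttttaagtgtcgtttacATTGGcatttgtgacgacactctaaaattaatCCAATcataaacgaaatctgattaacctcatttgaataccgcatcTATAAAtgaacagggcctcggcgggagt
HIST1H2BK: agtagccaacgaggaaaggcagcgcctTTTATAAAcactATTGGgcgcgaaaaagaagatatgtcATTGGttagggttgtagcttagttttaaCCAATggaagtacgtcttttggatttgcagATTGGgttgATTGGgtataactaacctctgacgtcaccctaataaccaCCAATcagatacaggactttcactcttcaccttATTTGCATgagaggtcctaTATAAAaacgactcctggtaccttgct
HIST2H2BE: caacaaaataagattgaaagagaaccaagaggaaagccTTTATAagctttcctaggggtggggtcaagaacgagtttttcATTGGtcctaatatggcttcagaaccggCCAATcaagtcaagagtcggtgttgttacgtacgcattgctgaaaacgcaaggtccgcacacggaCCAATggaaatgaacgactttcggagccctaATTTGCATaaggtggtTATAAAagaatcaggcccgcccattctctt
HIST1H2AC and HIST1H2BC are transcribed away from each other from start sites 219 bases apart in GENCODE v29, so the first window covers the DNA between both genes. HIST1H2BD carried no octamer in its window and the other 3 did. HIST1H2BC had no entry of its own.

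Read depth cannot be recovered from the deposited values, which are regularised log2 (rLog) values, a scale on which 1 unit is a 2-fold change and on which genes with few reads are drawn towards their mean. Library medians lay between 7.14 and 7.19. The line's markers NES and VIM were high, with means over all libraries of 12.0 and 17.0. PRSS1 and INS were listed at 0 in every library, as was H3F3A, a gene that every cell uses, so a 0 is not read as absence. The acinar and endocrine genes AMY2A, CPA1 and GCG lay at or below -1.90, and the duct gene CFTR at -1.34. The leukocyte gene PTPRC was at 0.93 and the endothelial gene PECAM1 at 2.11.

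Most clustered histone genes gave few reads. The mean rLog value over all libraries was at least 5 in 6 members, between 2 and 5 in 14 and under 2 in 42, of which 21 were under 0. The 6 members of the highest band were the H2B genes HIST1H2BK, HIST2H2BE, HIST1H2BD and HIST1H2BC, the H2A gene HIST1H2AC and the linker histone gene HIST1H1C, and in each of them the untreated mean alone was also above 5. No H3 or H4 gene reached that band. rLog values are not divided by gene length, so these bands describe how much signal a test could use. Among members with a mean under 2, the largest difference from untreated cells was 0.0802 in size, over both agents and all times.

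At 0 in every library were 11 members. Among these were HIST2H2AA3 and HIST2H2AA4, HIST2H3A and HIST2H3C, and HIST2H4A and HIST2H4B, which are near-identical copies of each other, and reads that match more than one copy cannot be assigned to 1 of them. How the counting treated such reads is not given, so a value of 0 here is no measure of expression. The other 5 were HIST1H2AA, HIST1H2AD, HIST1H2BA, HIST1H4G and the pseudogene HIST1H2APS1. Apart from HIST1H4G, whose model is shorter, the HIST1H4 genes encode the same protein and are alike in sequence. Values of single H4 genes may therefore be uncertain where reads match several of them, and how often this occurs was not counted.

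The rise of the 6 well-covered members at 24 h was the main change. In these bulk libraries, more RNA per cell and more cells holding it cannot be told apart. In each, the 3 libraries at 24 h after either agent lay above all 3 untreated libraries. The share of all genes whose libraries separated between groups was not counted, here or in the comparisons below. HIST1H2BK, the member with the highest rLog value, read 8.996, 9.06 and 9.03 in untreated cells, 9.46, 9.46 and 9.50 at 24 h after H2O2, and 9.84, 9.90 and 9.73 at 24 h after NCS. HIST2H2BE read 6.79, 6.79 and 6.80 untreated, 7.25, 7.15 and 7.13 after H2O2, and 7.80, 7.87 and 7.74 after NCS. HIST1H2BD, another H2B gene, read 5.81, 5.68 and 5.75 untreated, 6.34, 6.31 and 6.49 after H2O2, and 6.72, 6.79 and 6.73 after NCS. In all 3 genes the untreated, H2O2 and NCS libraries formed separate bands in that order. HIST1H2AC, the H2A gene of the band, read 6.64, 6.72 and 6.63 untreated, 7.36, 7.20 and 7.34 after H2O2, and 7.48, 7.48 and 7.56 after NCS. Its neighbour HIST1H2BC read 4.99, 5.09 and 4.96 untreated, 5.41, 5.51 and 5.43 after H2O2, and 5.66, 5.65 and 5.72 after NCS. The linker histone gene HIST1H1C read 7.70, 7.73 and 7.78 untreated, 7.97, 8.13 and 7.98 after H2O2, and 8.19, 8.25 and 8.34 after NCS. These genes showed the same order of groups, again without overlap.

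**Figure D1:**
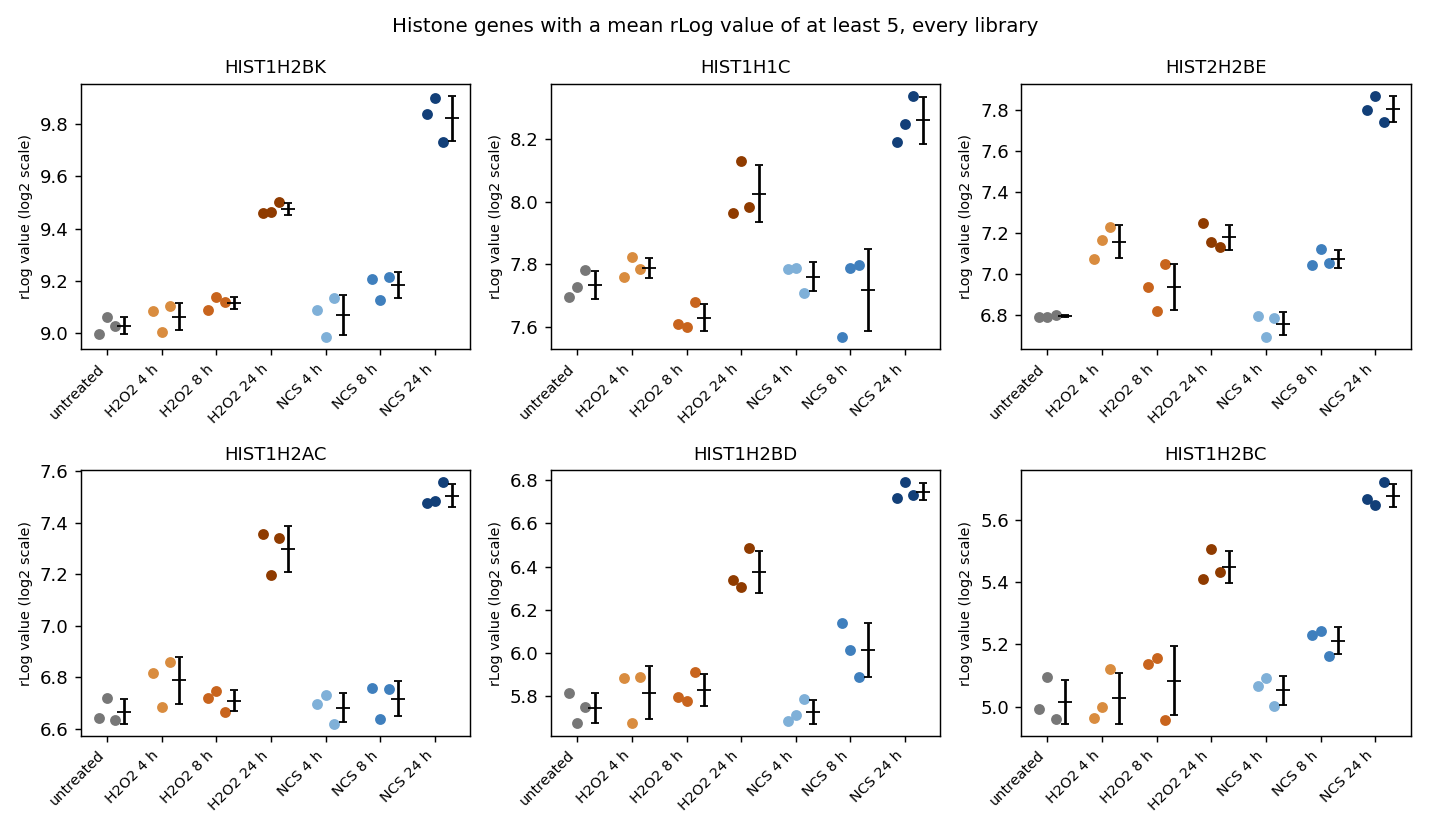
rLog values (log2 scale, vertical axis) of the 6 clustered histone genes with a mean of at least 5 in the 7 groups (horizontal axis), with 1 point per library and the mean ± SD of 3 libraries beside the points in black. In every panel the NCS 24 h points stand above the H2O2 24 h points, which stand above the untreated points, and HIST2H2BE is also raised at 4 h after H2O2.

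After NCS, the differences at 24 h from untreated cells were 1.01 ± 0.06 (SE, n = 3 against 3) for HIST2H2BE, with an adjusted p of 2.96e-11 (limma, Benjamini-Hochberg over all 19694 genes), and 1.00 ± 0.07 for HIST1H2BD (adjusted p = 1.20e-09). HIST1H2AC rose by 0.84 ± 0.05, HIST1H2BK by 0.80 ± 0.04, HIST1H2BC by 0.66 ± 0.06 and HIST1H1C by 0.53 ± 0.06. In all, 12 of the 62 members rose and 5 fell at this time, where 19.6% of all genes rose and 18.4% fell. The share of members that rose, 19.4%, was close to that background. Within the band of means of at least 5 it was 6 of 6, where 30.3% of the 11681 genes in that band rose, and the median difference was 0.82 beside a median near 0 over the genes of the band. HIST2H2BE and HIST1H2BD were the 2 members that also passed a log2 difference of 1, a limit that 0.127% of all genes passed upwards. With library medians aligned the split of members was 13 higher and 2 lower.

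After H2O2 the same 6 genes rose, by less. The 24 h differences were 0.63 ± 0.05 for HIST1H2AC (adjusted p = 1.67e-08), 0.63 ± 0.07 for HIST1H2BD, 0.45 ± 0.04 for HIST1H2BK, 0.43 ± 0.06 for HIST1H2BC, 0.39 ± 0.06 for HIST2H2BE and 0.29 ± 0.06 for HIST1H1C, the last with an adjusted p of 0.000414. Of the 62 members 9 rose and 7 fell, where 20.2% of all genes rose and 19.9% fell, and in the band of means of at least 5 the count was again 6 of 6, where 30.3% of genes rose. The median difference of the 6 was 0.44. With library medians aligned the split was 9 higher and 15 lower, and with only genes of mean at least 5 it was 6 higher and 0 lower, so the number that fell depended on the scaling and the rise of the 6 genes did not.

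Fewer and smaller changes were seen among the 14 members of the middle band. HIST1H4H, the H4 gene with the highest level, read 4.10, 4.19 and 4.00 in untreated cells, 4.47, 4.46 and 4.38 at 24 h after H2O2 and 4.36, 4.54 and 4.51 at 24 h after NCS. Its 24 h libraries did not overlap the untreated ones, and it rose by 0.34 ± 0.07 after H2O2 and by 0.38 ± 0.07 after NCS (adjusted p = 0.000235). The H3 gene HIST1H3D, the highest of its type, rose by 0.27 ± 0.05 after NCS, while its difference after H2O2 was 0.10 ± 0.05 and did not pass (adjusted p = 0.167). HIST1H3E rose by 0.21 after NCS and 0.14 after H2O2, and HIST1H2BN by 0.16 and 0.12. HIST1H2BN overlaps HIST1H2AK and HIST1H2AL in the annotation, and HIST1H3D and HIST1H2BD also overlap other genes, so reads there can belong to either gene.

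HIST2H2AC, an H2A gene, fell. It read 3.06, 3.12 and 3.10 in untreated cells, 2.94, 3.00 and 2.98 at 24 h after H2O2, and 2.96, 2.96 and 2.93 at 24 h after NCS. The libraries did not overlap with untreated cells, which was a condition for naming the gene and so adds no support to the fall. In limma HIST2H2AC fell by 0.14 ± 0.04 on the log2 scale after NCS (adjusted p = 0.0107). After H2O2 it fell by 0.12 ± 0.04 (adjusted p = 0.0309). That adjusted p lay between 0.0579 and 0.111 when H2O2 24 h replicate 1 or 3 or untreated replicate 2 or 3 was left out. The remaining falls at 24 h were under 0.09 in size and lay in genes of low signal, among them the H3 gene HIST1H3C, the H4 genes HIST1H4D and HIST1H4I, the H2B gene HIST1H2BO and the pseudogene HIST2H2BC. Several of these calls rested on the setting, and HIST1H3C lost its call after H2O2 in 6 alternatives (adjusted p between 0.0686 and 0.237).

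**Figure D2:**
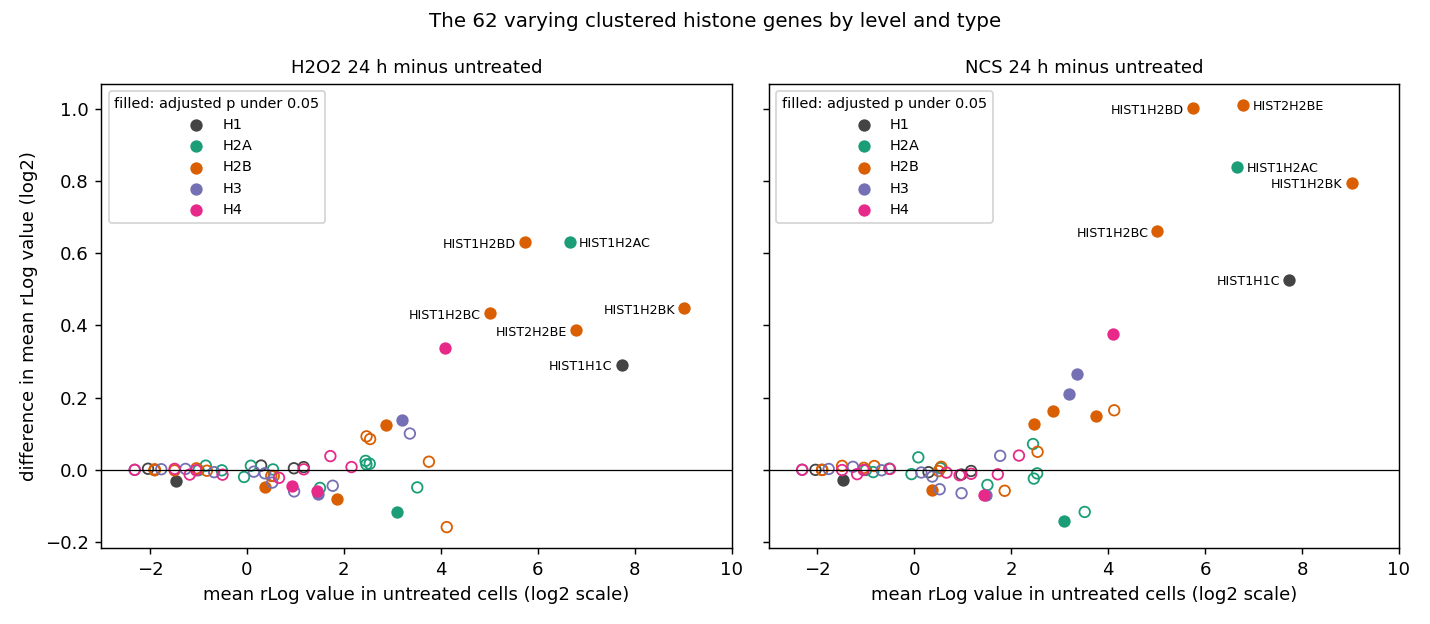
Difference in mean rLog value from untreated cells at 24 h (vertical axis, log2) against the untreated mean (horizontal axis, log2 scale) for the 62 varying members, coloured by histone type and filled where the adjusted p was under 0.05. The 6 genes with a mean of at least 5 all lie above 0.25 in both panels, and members with an untreated mean under 2 lie within 0.1 of 0.

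By type, the H2B genes gave the most rises. After NCS at 24 h, where 19.6% of all genes rose, 7 of 19 H2B genes rose and 1 fell, against 1 and 1 of 13 H2A genes, 2 and 1 of 12 H3 genes, 1 and 1 of 12 H4 genes and 1 and 1 of 6 H1 genes. After H2O2, where 20.2% of all genes rose, 5 of 19 H2B genes (26.3%) rose and 2 fell, a share near that of all genes, while H1, H2A and H3 each had 1 rise and 1 fall and H4 had 1 rise and 2 falls. The mean level of H2B members was 1.92 ± 0.01 (SD, n = 3) in untreated cells, 2.02 ± 0.01 at 24 h after H2O2 and 2.14 ± 0.0041 at 24 h after NCS, and the 3 sets of libraries did not overlap. That of H2A moved from 1.57 to 1.61 and 1.62, that of H1 from 1.11 to 1.16 and 1.19, that of H3 from 0.48 to 0.48 and 0.51 and that of H4 from 0.47 to 0.49 and 0.50. H2B genes also made up 4 of the 6 members of the highest band and 9 of the 20 members with a mean of at least 2, so type and level cannot be told apart in these counts. These type means were pulled by a few genes, since the median difference over the 19 H2B genes at 24 h was 0.00129 after H2O2 and 0.01 after NCS. No test was run on them.

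**Figure D3:**
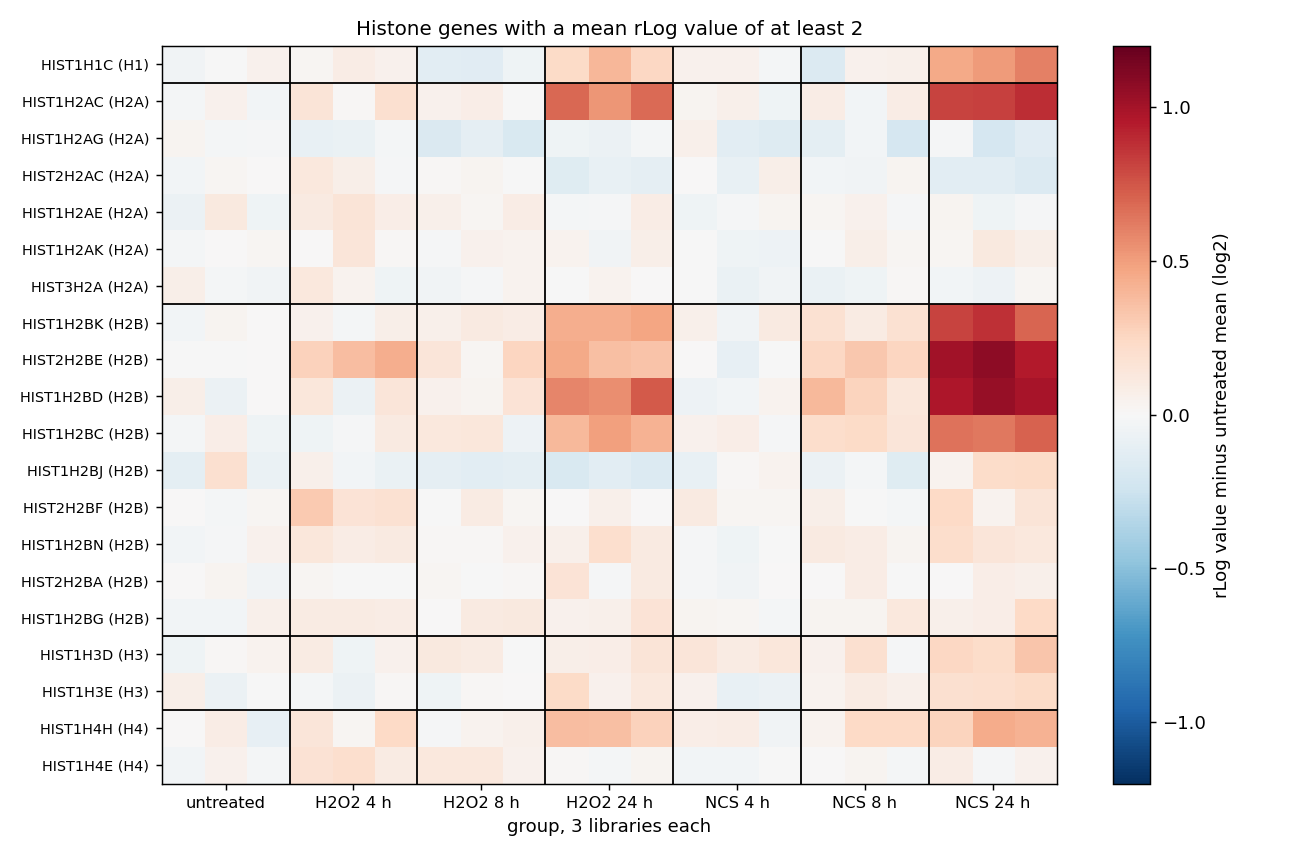
Difference of each library's rLog value from the untreated mean of the gene (colour, log2) for the 20 members with a mean of at least 2, grouped by histone type, over the 21 libraries of the 7 groups. The strongest red at 24 h belongs to HIST1H1C, HIST1H2AC, 4 H2B genes and HIST1H4H. Smaller rises at 24 h after NCS, as in the H3 genes HIST1H3D and HIST1H3E, are paler. HIST2H2BE and HIST2H2BF are also red at 4 h after H2O2.

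Before 24 h, direct comparison of the agents in limma passed in 1 of the 6 well-covered members at 4 h (HIST2H2BE) and in 0 of 6 at 8 h, where 3 had an unadjusted p under 0.05. At 4 h after NCS 0 of the 6 well-covered members passed the limma test, and 0 had an unadjusted p under 0.05. Over all members 1 rose (HIST1H3G, by 0.05) and 1 fell (HIST1H2BO, by 0.05), where 7.47% of genes rose and 9.72% fell. Each of these calls was lost in 4 alternatives (adjusted p up to 0.146 and 0.158), and with only the groups compared the count was 0 and 0. At 8 h after NCS, HIST2H2BE rose by 0.28 ± 0.06, HIST1H2BD by 0.27 ± 0.07, HIST1H2BC by 0.20 ± 0.06 and HIST1H2BK by 0.15 ± 0.04, all H2B genes. HIST2H2BE read 7.04, 7.12 and 7.05 at 8 h, all above the untreated libraries, after 6.79, 6.69 and 6.79 at 4 h, which overlapped them. HIST1H2AC and HIST1H1C read 6.72 ± 0.07 and 7.72 ± 0.13 at 8 h beside 6.67 ± 0.05 and 7.74 ± 0.05 untreated. Over all members 5 rose and 1 fell at 8 h, where 10.5% of genes rose and 13.3% fell, and with library medians aligned the split was 4 and 14. The calls at 8 h were near the threshold. HIST1H2BC, HIST1H2BD and HIST1H2BK lost them when 1 library was left out (adjusted p between 0.0506 and 0.080; NCS 8 h replicate 1 did so for all 3, and HIST2H2BE kept its call). From 4 to 8 h after NCS 3 members rose, among them HIST2H2BE and HIST1H2BD, and 1 fell, where 6.16% of genes rose and 7.5% fell. From 8 to 24 h all 6 well-covered members rose, by 0.46 for HIST1H2BC up to 0.79 for HIST1H2AC, and over all members 10 rose and 4 fell, where 14.9% of genes rose and 15% fell. With library medians aligned that split was 27 and 0.

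H2O2 gave an early peak in 1 of these genes. HIST2H2BE read 7.07, 7.17 and 7.23 at 4 h, all above the untreated libraries, then 6.94, 6.82 and 7.05 at 8 h and 7.25, 7.15 and 7.13 at 24 h. It rose by 0.36 ± 0.06 at 4 h (adjusted p = 2.75e-05), differed by -0.22 at 8 h from 4 h (adjusted p = 0.00297) and rose by 0.24 from 8 to 24 h (adjusted p = 0.00135). The other 5 well-covered members differed from untreated cells by at most 0.12 at 4 h and did not pass. HIST2H2BF, another H2B gene of that cluster, read 4.07, 3.92 and 3.94 at 4 h beside 3.76, 3.73 and 3.78 untreated, a rise of 0.22 ± 0.05, and 3.76, 3.81 and 3.76 at 24 h. Its high 4 h libraries were followed by values that overlapped the untreated ones. HIST2H2BF overlaps AC243772.2 on the same strand and FCGR1A on the other in the annotation, so reads there can belong to another gene. HIST1H4E, an H4 gene, rose by 0.16 at 4 h and by 0.10 at 8 h, the latter a call lost in 6 alternatives (adjusted p between 0.0648 and 0.128). Over all members 11 rose and 1 fell at 4 h, where 26.2% of genes rose and 19.7% fell, and only 5 of these rises were over 0.1. This split turned with the scaling, to 3 higher and 3 lower with library medians aligned and to 1 higher and 19 lower with quantile normalization, and HIST2H2BE was the member whose rise held in each. HIST2H2BF and HIST1H4E did not pass after quantile normalization (adjusted p = 0.397 and 0.416). At 8 h, 2 members rose and 4 fell after H2O2, where 18.8% of genes rose and 18.6% fell. From 4 to 8 h after H2O2, 0 members rose and 8 fell in limma (0 and 10 at an unadjusted p under 0.05), where 18% of genes rose and 27.7% fell, and with quantile normalization the split was 4 and 2. From 8 to 24 h the 6 well-covered members all rose, by 0.24 for HIST2H2BE up to 0.59 for HIST1H2AC. Over all members 9 rose and 3 fell in that step, where 19.4% of genes rose and 23.2% fell, and with library medians aligned the split was 8 and 13.

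Direct comparison of the agents at 24 h placed H2O2 below NCS in all 6 well-covered members. The difference, H2O2 minus NCS, was -0.62 ± 0.06 for HIST2H2BE (adjusted p = 1.53e-07), -0.37 ± 0.07 for HIST1H2BD, -0.35 ± 0.04 for HIST1H2BK, -0.23 for HIST1H2BC and HIST1H1C, and -0.21 ± 0.05 for HIST1H2AC (adjusted p = 0.00943, and 0.0664 without H2O2 24 h replicate 2). Their libraries did not overlap. HIST1H2BJ, an H2B gene whose product is commonly used in fluorescent reporters, read 3.94, 4.00 and 3.96 after H2O2 and 4.17, 4.34 and 4.36 after NCS, a difference of -0.32 ± 0.07, although neither differed from the untreated libraries at 4.01, 4.32 and 4.05 beyond the test. The study also made lines carrying an H2B reporter, and its account of the sequencing names only hTERT-HPNE cells, so whether the sequenced cells carried it is not given in the sources used here. Over all members 0 were higher and 9 lower after H2O2 in limma (1 and 12 at an unadjusted p under 0.05), where 11% of genes were higher and 10.9% lower, and with library medians aligned 24 were lower. At 4 h the order was reversed in HIST2H2BE, which was higher after H2O2 by 0.40 ± 0.06 (adjusted p = 1.02e-05). At that time 13 members were higher and 1 lower, where 26.3% of genes were higher and 18% lower, and the split was 1 and 12 after quantile normalization. The change of the difference from 4 to 24 h, tested directly, was -1.02 ± 0.08 for HIST2H2BE (adjusted p = 1.46e-08). It was negative past the test in 11 members and positive in 1, where 22.7% and 16.6% of genes were, and the split was 25 and 0 with library medians aligned. At 8 h 1 member was higher and 1 lower, where 18.7% of genes were higher and 15.4% lower, and with library medians aligned the split was 12 and 1.

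Neighbouring genes on the chromosome did not all move together. Among the varying members 9 pairs of an H2A and an H2B gene are transcribed away from each other from start sites 219 to 331 bases apart. In the HIST1H2AC and HIST1H2BC pair both genes rose after both agents. HIST2H2BE and HIST2H2AC, 323 bases apart, moved in opposite directions at 24 h, with 1.01 and -0.14 after NCS and 0.39 and -0.12 after H2O2. HIST1H2BK, with an untreated level of 9.03, has its start 331 bases from that of HIST1H2AH, which had an untreated level of -0.52 and differences within 0.01 of 0. In the HIST1H2BJ and HIST1H2AG pair, no difference from untreated cells at 24 h passed, and HIST1H2BG rose by 0.13 after NCS while its partner HIST1H2AE differed by -0.01. The windows of HIST2H2AC and HIST2H2BE cover nearly the same DNA, and both held all 3 motifs. Where the annotation let the stem-loop be found, 19 varying members had a transcript that ran at least 100 bases past it, and at 24 h 8 of these 19 rose after NCS and 6 after H2O2, against 4 and 3 of the 43 other varying members and 19.6% and 20.2% of all genes. The 43 included 30 members whose models ended at the stop codon and could not be searched. These counts therefore cannot compare genes with and without such transcripts. Signal also differed between these sets, with a mean of at least 2 in 11 of the 19 and in 9 of the 43.

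**Figure D4:**
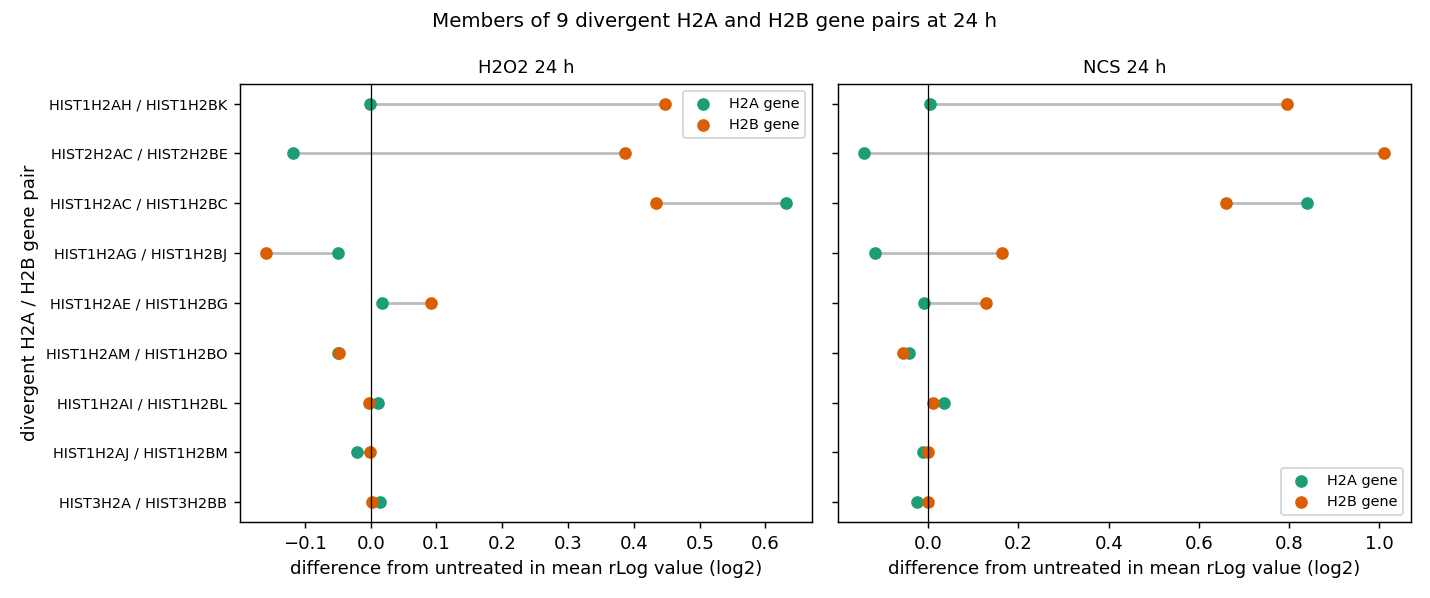
Difference from untreated cells in mean rLog value at 24 h (horizontal axis, log2) for the H2A and H2B gene of 9 divergent pairs (vertical axis), after H2O2 (left) and NCS (right), with a grey line joining the pair. Both genes lie right of 0.4 in the HIST1H2AC and HIST1H2BC pair, whereas HIST2H2AC lies left of 0 and its partner HIST2H2BE right of it.

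Genes that work with histones moved the other way. The S-phase genes, a list of 17 replication factors and cyclins, all fell at 24 h, with a median difference of -1.40 after H2O2 and -1.33 after NCS, among them CCNE2, a G1/S cyclin (-1.88 and -1.88), RRM2, a subunit of ribonucleotide reductase (-1.80 and -1.75), and CDC6, which loads the replicative helicase (-1.75 and -1.66). Their mean level per library was 10.7 in all 3 untreated libraries and lay between 9.32 and 9.42 in the 6 libraries at 24 h. At 24 h 19.9% of all genes fell after H2O2 and 18.4% after NCS. At 4 h, 1 S-phase gene rose and 7 fell after H2O2, where 26.2% of all genes rose and 19.7% fell. Among genes with a mean of at least 5, 32.5% fell at that time. At 4 h after NCS 2 S-phase genes rose and 2 fell, where 7.47% of all genes rose and 9.72% fell. The part of the S-phase fall in the histone values was not tested.

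Of 16 genes of histone mRNA processing and histone gene transcription, 11 fell and 3 rose at 24 h after H2O2. After NCS 12 fell and 1 rose, and the medians were -0.21 and -0.34. Over all genes 19.9% fell and 20.2% rose after H2O2, and 18.4% fell and 19.6% rose after NCS. Among genes with a mean of at least 5, the shares that fell were 31.8% and 29.6%. SLBP, which binds the stem-loop, fell by 0.63 after H2O2 and by 0.68 after NCS. NPAT, the coactivator of the clustered genes, fell by 0.53 and 0.59, CASP8AP2, which acts in the same nuclear bodies, by 0.65 and 0.63, and ERI1, an exonuclease that acts at the stem-loop, by 0.60 and 0.65. HINFP, a transcription factor of H4 genes, rose by 0.28 after H2O2, and its difference after NCS was 0.08 (adjusted p = 0.13). Among 16 histone chaperones, 13 fell and 1 rose after H2O2 and 14 fell and 0 rose after NCS (14 and 1 at an unadjusted p under 0.05 in limma), with the largest falls in HJURP, the chaperone of CENPA (-2.21 and -2.52), ASF1B (-1.84 and -1.66) and the CAF-1 subunit gene CHAF1B (-1.27 and -1.31).

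The histone genes outside the clusters, whose transcripts are polyadenylated as a rule, are the closest comparison. H2AFX, which carries the stem-loop, is an exception among them. Of 10 that varied, 6 fell and 1 rose at 24 h after H2O2, where 19.9% of all genes fell and 20.2% rose. After NCS 8 fell and 1 rose, where 18.4% of all genes fell and 19.6% rose. H1F0 was the gene that rose after H2O2, and it fell after NCS. CENPA, the centromeric H3, differed by -1.87 and -2.06, H2AFX by -1.47 and -1.56, and H2AFZ by -0.996 and -1.07. H3F3A was listed at 0 in every library. Over all genes the median difference at 24 h was near 0 after either agent.

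**Figure D5:**
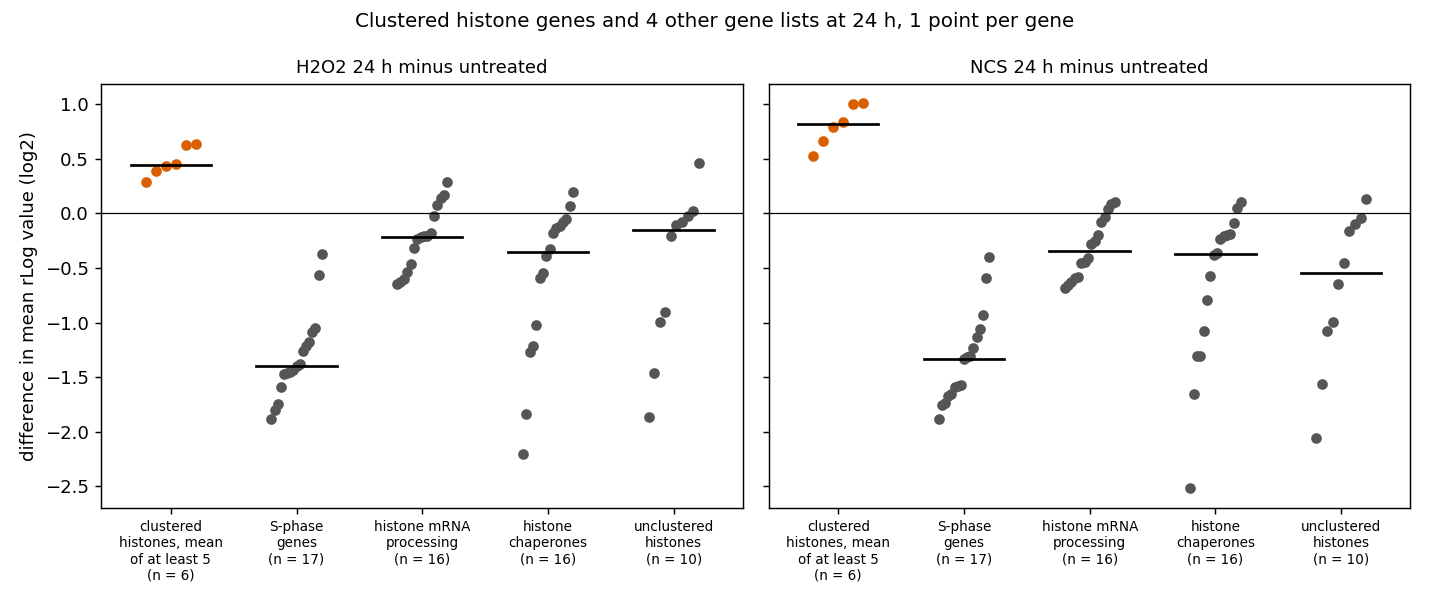
Difference in mean rLog value from untreated cells at 24 h (vertical axis, log2) for the 6 clustered histone genes with a mean of at least 5 and for 4 other gene lists (horizontal axis), with 1 point per gene and the median as a black line, after H2O2 (left) and NCS (right). All 6 histone points lie above 0 in both panels, and all 17 S-phase points lie below it.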

How the data were processed

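RNA was taken from 21 cultures of hTERT-HPNE cells in 7 groups of 3, sequenced with a stranded poly(A) kit. Per the labels and methods, the authors used HISAT2 for alignment and HTSeq for gene counts, and deposited regularised log2 (rLog) values from DESeq2; the processing notes name the hg19 build, and tool versions, the annotation and the strand setting of the counting are not given in the sources used here. The rLog values hold no counts, so no count test was run, and depth and counting error are unknown. Members and gene lists were chosen with earlier results of these data known. Groups were taken from the sample labels. All 19694 varying genes were fitted in limma 3.58.1 (R 4.3.3), with 1 mean per group and a variance trend on the mean level; p-values were adjusted by Benjamini-Hochberg across these genes, and a gene was called at an adjusted p under 0.05. All 7 groups shared 1 estimate of the spread. An exact permutation test of 3 against 3 libraries cannot go below 0.1. Differences are given ± the standard error of the fit and levels ± SD. The fit was first tested on simulated data. Named members were the 5 largest rises and falls per comparison with untreated cells whose libraries did not overlap, the highest member of each type, identical copies and HIST1H2BJ; from each other list SLBP, NPAT and up to 3 genes with the largest change were named. Other genes (HIST1H3E, ERI1, HINFP, H1F0, H1FX, HIST1H2BG, HIST1H2AE, HIST1H2AH, HIST1H3D in its other comparisons, and the partners of divergent pairs) were named after their values were seen. Alternatives were another scaling, a minimum mean, only the groups compared, a replicate block, larger minimum differences and leaving out each library. Genome positions, stem-loops and pairs came from GENCODE v29 (GRCh38) and promoters from RefSeq (GRCh38.p14), matched by symbol only, with no coordinates taken from the authors' build. Python 3.11.15 and matplotlib 3.10.9 were used for annotation and plots.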

Additional observations from a re-analysis of the deposited data

Results flagged for a closer look

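The difference between agents changed from 4 h to 24 h in several members, by a test of that change itself (an interaction contrast in limma, adjusted over all genes). The H2O2 minus NCS difference fell in 11 of the 62 members, where 22.7% of all genes fell, and rose in 1, where 16.6% rose. The change was -1.02 ± 0.08 for HIST2H2BE, whose difference went from 0.40 at 4 h to -0.62 at 24 h. It was -0.46 for HIST1H2BD, -0.34 for HIST1H2BK and -0.31 for HIST1H2AC, whose differences at 4 h had not passed. HIST2H2BF changed by -0.29, HIST1H4E by -0.22 and HIST1H2BN by -0.17, each of which had been higher after H2O2 than after NCS at 4 h. HIST1H3G, an H3 gene of low signal, changed by 0.0697. With quantile normalization 5 members fell and 2 rose, and with library medians aligned 25 fell and 0 rose. The 5 that fell with quantile normalization were all well-covered members, so the falls of HIST2H2BF, HIST1H4E and HIST1H2BN did not pass there. With that scaling 1 member was higher after H2O2 than NCS at 4 h, a well-covered one, so these genes were not called higher then. Groups of 3 libraries were not searched for outlying samples.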

How the results depend on the processing

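The 24 h rises of the 6 members with a mean of at least 5 held under each alternative to the scaling, filter, block and groups fitted, and with each library left out, after both agents. Their order below NCS after H2O2 held in 6 of 6 except without H2O2 24 h replicate 2, where HIST1H2AC did not pass. Counts of members moved more, and the cause was not tested. With library medians aligned the members higher and lower were 3 and 3 (H2O2 4 h), 1 and 4 (H2O2 8 h), 9 and 15 (H2O2 24 h), 0 and 2 (NCS 4 h), 4 and 14 (NCS 8 h) and 13 and 2 (NCS 24 h) against untreated, 8 and 1, 12 and 1, and 0 and 24 for H2O2 against NCS at 4, 8 and 24 h, 1 and 3 and then 8 and 13 for the H2O2 steps to 8 and 24 h, 2 and 1 and then 27 and 0 for the NCS steps, and 0 and 25 for the change between agents. With quantile normalization the same order of comparisons gave 1 and 19, 2 and 6, 10 and 8, 1 and 2, 5 and 3, 11 and 7, then 1 and 12, 0 and 4, 1 and 9, then 4 and 2, 11 and 0, 3 and 1, 9 and 4, and 2 and 5. With only genes of mean at least 5 it gave 1 and 0, 1 and 0, 6 and 0, 0 and 0, 4 and 0, 6 and 0, then 1 and 0, 0 and 2, 0 and 6, then 0 and 2, 6 and 0, 2 and 0, 6 and 0, and 0 and 5, since only 6 members remained. With only the groups compared it gave 5 and 0, 1 and 1, 7 and 4, 0 and 0, 4 and 1, 10 and 3, then 6 and 1, 1 and 1, 0 and 9, then 0 and 1, 7 and 3, 3 and 1, 8 and 4, and 1 and 12. A log2 difference over 0.58 left 2 higher at H2O2 24 h, 5 at NCS 24 h, 1 lower for H2O2 against NCS at 24 h, 1 and 4 higher in the H2O2 and NCS steps from 8 to 24 h and 1 lower in the change between agents, and 0 elsewhere; a limit of 1 left 2 higher at NCS 24 h and 1 lower in the change between agents, and 0 elsewhere. Leaving out 1 library at a time gave higher counts of 6 to 13, 0 to 3, 8 to 9, 0 to 2, 3 to 5 and 10 to 13 and lower counts of 0 to 2, 1 to 4, 2 to 7, 0 to 2, 1 to 3 and 2 to 5 for the 6 comparisons with untreated cells, higher counts of 7 to 14, 0 to 2 and 0 to 1 and lower counts of 1 to 1, 1 to 3 and 7 to 11 between agents, and 0 to 1 and 5 to 6, 7 to 9 and 0 to 3, 2 to 3 and 0 to 2, and 7 to 10 and 2 to 3 higher and lower in the steps. The lowest counts came without untreated replicate 1 or H2O2 4 h replicate 1 for the rises at H2O2 4 h (6 and 7) and without H2O2 24 h replicate 1 or 3 for the falls at H2O2 24 h (2 and 2). Same-numbered libraries did not deviate together (mean correlation 0.0274, against -0.0137 for other numbers), so the numbers pair nothing; the replicate block moved the rises at H2O2 8 h from 2 to 1 and the members lower after H2O2 than NCS at 8 h from 1 to 2, and changed no other count by over 1.5 times. HIST1H2BN at H2O2 4 h turned from 0.11 to -0.0482 with quantile normalization (adjusted p = 0.298). Of 37 named differences, other alternatives kept the call in 136 cases and lost it in 26, and leaving out a library kept it in 165 and lost it in 57, in each case outside the 24 h rises. The differences of type levels at 24 h (H2O2, NCS) moved with the median level over members in place of the mean. They became 0.0078 and -0.010 for H1, -0.0503 and -0.0421 for H2A, -0.0802 and -0.0583 for H2B, -0.0228 and -0.0365 for H3 and -0.0344 and -0.0116 for H4. That median follows 1 or 2 genes and not the type (HIST1H2AM for H2A and the pseudogene HIST2H2BC for H2B). With means of at least 5 the differences were 0.292 and 0.526 for H1, 0.632 and 0.839 for H2A, and 0.474 and 0.867 for H2B. With library medians aligned the H2O2 differences became 0.0293 (H1), 0.0178 (H2A), 0.0814 (H2B), -0.0175 (H3) and 0.000604 (H4). The NCS difference of H3 became 0.0329, and those of the other types are not listed here. Before alignment the NCS difference of H2B was 0.212.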

Other observations

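Linker histone genes outside the clusters did not share the pattern of HIST1H1C. H1F0, the replacement H1 of cells that have stopped dividing, rose by 0.46 at 24 h after H2O2 (adjusted p = 2e-11) and fell by 0.09 after NCS (adjusted p = 0.0049), so that it was higher after H2O2 than after NCS by 0.55, opposite to the order of the agents in HIST1H1C. H1FX fell by 0.64 after NCS, and its difference after H2O2 was -0.08 (adjusted p = 0.24). Both genes were named after their values were seen.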
